A study of Mus musculus with 2 samples.

Results

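The genes described here encode proteins that write, erase or read chemical marks on histones and DNA, or that move nucleosomes. They were chosen by symbol from the probe sets paired with 1 gene alone, and comprise the families Kdm, Kmt2 and Kmt5, Setd, Ehmt, Prmt, Prdm, Kat, Hdac, Sirt, Dnmt, Tet, Brd, Cbx, Phf, Smarc, Arid and Chd together with Ezh1, Ezh2, Suz12 and Eed. The rule found 116 genes, with 224 probe sets, of 13869 genes in the value table, and uses the symbols alone. Of the 116, 114 encode proteins, and the others are the pseudogene Phf8-ps and the non-coding Prdm16os. RefSeq lists 165 protein-coding mouse genes that match the rule, so 51 of them are not analysed here.

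Luminal Venus High cells were compared with luminal Venus Low cells from the mammary glands of adult virgin females of 5 months on an FVB background. All of the mice carried the same genotype, Tbx3+/Venus, a knock-in of the coding sequence of Venus, a fluorescent protein, at the Tbx3 locus on one chromosome. Both populations are thus heterozygous for Tbx3, and Venus reports transcription of the locus. Epithelial cells of 3 mice were combined, CD45+ cells, stromal cells and dead cells were gated out, luminal cells were recognised by CD24 and CD49f, and 200000 cells of each Venus class were sorted. RNA of each population was hybridised to 1 mouse genome array, so there are no replicates, no p-values and no error for any difference below, and the number of arrays limits the precision. Whether more cells of one kind or more RNA per cell underlies a higher signal cannot be told apart in sorted bulk samples.

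Of the 29338 probe sets analysed, 12968 had a higher value in Venus High cells, 16370 were at the lowest value of the table (a log2 signal of 3.32, taken as a floor) on both arrays, and none, 0 of 29338, was lower in Venus High cells. Chromatin genes that were lower in Venus High cells are therefore not counted below, every median difference lies above 0 by construction, and a gene may be represented by a probe set other than its brightest. Tbx3, as a check of the sort, had log2 signals of 8.72 in Venus High against 3.62 in Venus Low cells on its brightest probe set. Of 8 hormone-sensing luminal markers listed, 5 had a probe set in the table, all 5 of them higher by 4-fold or more in Venus High cells, and their summed signal was 14821 in Venus High against 510 in Venus Low cells. Of all genes with a signal of at least 100 on 1 array, 8.58% were higher by 4-fold or more. Of 8 alveolar markers, 0 are in the table. A marker higher in Venus Low cells could not appear in it. The direction of the markers is therefore fixed by the table, and those of other cells cannot speak for the purity of the Venus Low sort. Of 5 pan-luminal markers, 3 are in it, with differences between 0.09 and 0.98 on the log2 scale, Krt8 at the low end, and a summed signal of 26666 in Venus High against 18331 in Venus Low cells. The markers of other cells were at or near the floor, namely 6 of 6 basal markers with a probe set in the table (8 listed), 4 of 4 leukocyte markers (7 listed), the 1 erythroid marker (3 listed) and 2 of 4 stromal and endothelial markers (7 listed). The other two of these, Col1a1 and Col1a2, did not exceed 3.84, and the summed stromal signal was 45.4 in Venus High against 42.8 in Venus Low cells.

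Histone tails carry acetyl and methyl groups that are added by acetyltransferases and methyltransferases and removed by deacetylases and demethylases. Bromodomains, chromodomains and PHD fingers bind such marks, and ATP-driven remodelers of the SWI/SNF, ISWI and CHD types slide or evict nucleosomes. In steroid-responsive tissues such as the mammary gland, the estrogen and progesterone receptors are known to recruit acetyltransferases and SWI/SNF complexes when bound to hormone, and corepressor complexes with deacetylases in other states.

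Of the 116 genes, 54 (46.6%) reached a signal of 100 on at least 1 array, against 27.7% of all genes in the table. Only these 54 are counted in comparisons. A further 36 lay between the floor and this signal. At the floor throughout were 26 (22.4%), against 48.2% of all genes. Among the 54, 6 were higher in Venus High cells by 2-fold or more, which is 11.1%, whereas 831 of all 3847 genes with such a signal were, which is 21.6%. At 4-fold or more there were 0 of the 54, against 8.58% of all genes. The median log2 difference (Venus High minus Venus Low) was 0.34 over the chromatin genes and 0.46 over all genes. The upper quartile was 0.59 over the chromatin genes and 0.91 over all genes, and the 90th percentile was 0.95 over the chromatin genes and 1.77 over all genes. At 0.5 log2 units or more, 18 of the 54 (33.3%) were counted, and 47.2% of all genes. As the genes lower in Venus High cells are outside the table, these shares describe its upper side alone, and no test was made of the gap. With a signal of 100 required on both arrays, a setting chosen after the data were seen, 4 of 49 chromatin genes (8.16%) and 11.9% of all genes passed 2-fold, and Chd3 and Hdac6 were no longer among them.

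**Figure D1:**
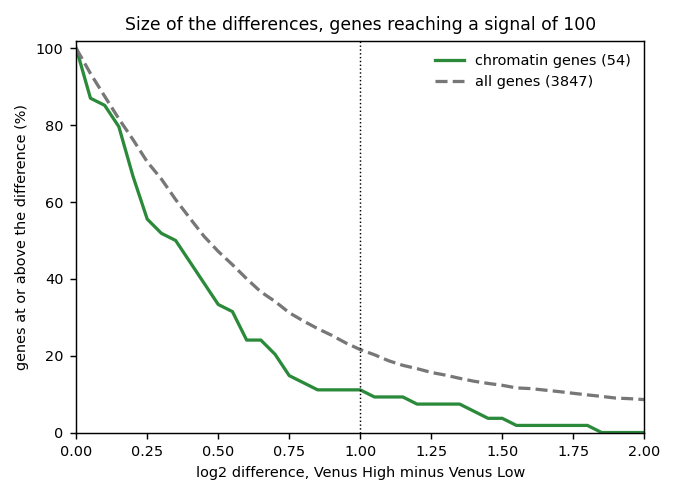
Share of genes (percent, vertical axis) whose log2 difference, Venus High minus Venus Low, is at least the value on the horizontal axis, for the 54 chromatin genes that reached a signal of 100 (green line) and all 3847 such genes (dashed grey line). The dotted line marks a 2-fold difference, where the shares are 11.1% of the chromatin genes and 21.6% of all genes.

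Histone deacetylases held 3 of the 6 genes that passed 2-fold. The family has only 4 genes with a signal of 100, too few to set against the 21.6% of all such genes. Deacetylases take acetyl groups from lysines, and the zinc-dependent classes carry the Hdac symbols. Hdac1, a class I enzyme and catalytic subunit of the NuRD, SIN3 and CoREST corepressor complexes, had log2 signals of 9.83 in Venus High against 8.01 in Venus Low cells, a 3.53-fold difference and the largest of the 54. Hdac11, the class IV enzyme, had 8.70 in Venus High against 7.20 in Venus Low cells (2.83-fold), and its other probe set differed by 1.94 on the log2 scale. Hdac6, a mostly cytoplasmic deacetylase of tubulin and other proteins, had 8.03 in Venus High against 6.63 in Venus Low cells (2.65-fold). Its signal in Venus Low cells, 98.9, lay just below 100. Hdac1 lay above the 90th percentile of all genes, and the differences of Hdac11 and Hdac6, 1.5 and 1.40 on the log2 scale, lay below it. Hdac2, the close relative of Hdac1, had 9.03 in Venus High against 8.49 in Venus Low cells, a difference of 0.54, and the family's median was 1.45 over these 4 genes. Of the other members in the table, Hdac7, Hdac8 and Hdac10 stayed below a signal of 100 and differed by between 0.54 and 0.76, and Hdac9 was at the floor on both arrays. Hdac3, Hdac4 and Hdac5 are not analysed here, so the family as a whole has no direction. Hdac1 and Hdac6 had 1 probe set each in the table, and RefSeq lists pseudogenes of Hdac1, and of Smarce1 and Kat2b described below, whose part in the signals was not tested.

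The other genes that were at least 2-fold higher encode a pair of remodeler ATPases and an ARID protein. Chd3, an ATPase of NuRD, had log2 signals of 7.74 in Venus High against 6.35 in Venus Low cells (2.63-fold, or 1.10 on the log2 scale when signals below 100 are set to 100). Smarca4, which encodes the SWI/SNF ATPase BRG1, had 9.83 in Venus High against 8.63 in Venus Low cells (2.29-fold), and its other probe set differed by 0.84, below 2-fold. Arid5a, known in immune cells as a protein that stabilises certain mRNAs, had 8.39 in Venus High against 7.39 in Venus Low cells (2.0-fold, a log2 difference of 1.0) and lies just inside the threshold. Just outside it, with 0.83, was Setd7, a methyltransferase of H3K4 and of other proteins. When each array is centred on its median, which lowers every difference by 0.66, 13 of the 54 stay above 0 (24.1%), against 36.1% of all genes, and Hdac1 alone is still at least 2-fold higher, by 1.16 on the log2 scale.

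**Figure D2:**
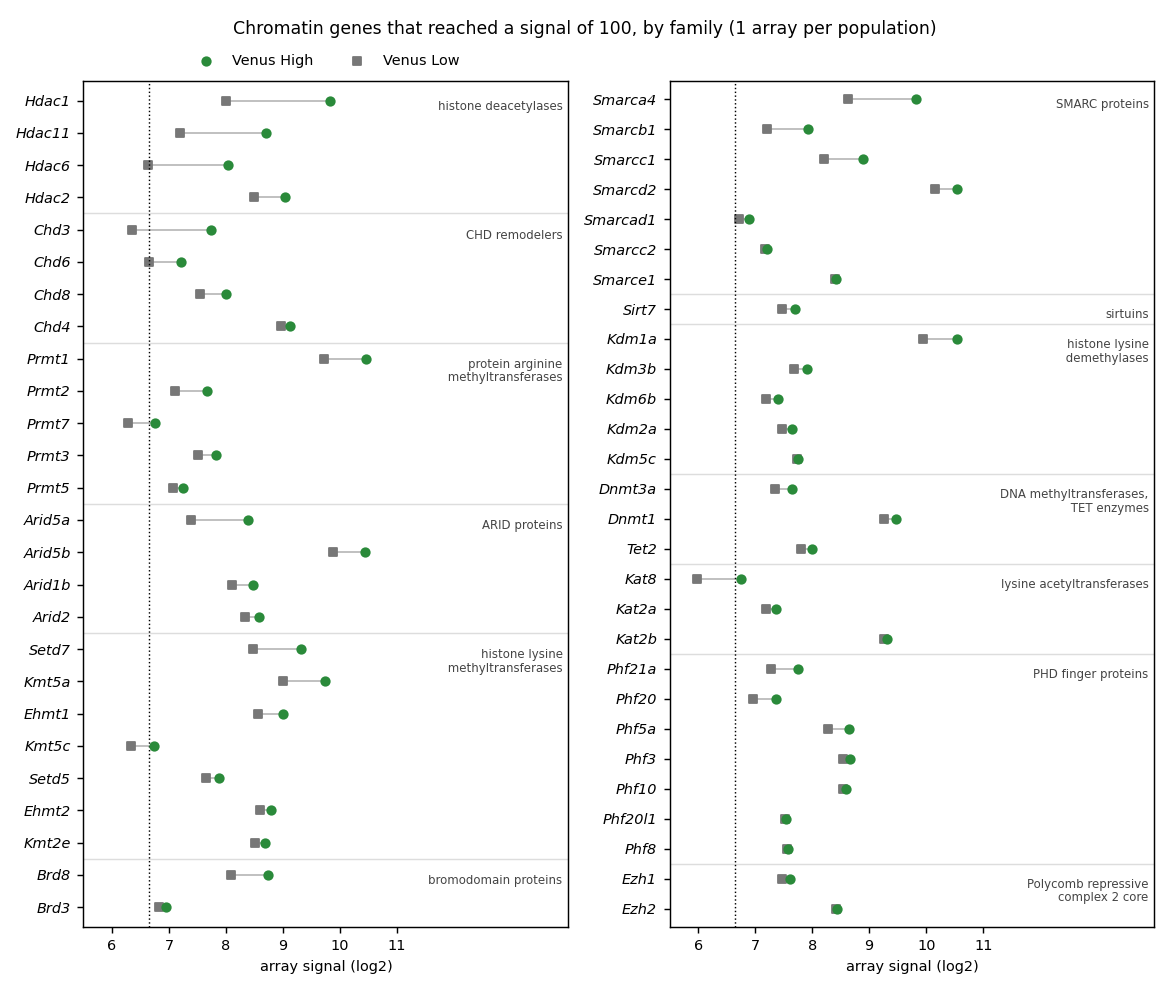
Array signal (log2, horizontal axis) of the 54 chromatin genes that reached a signal of 100, by family, with green circles for luminal Venus High and grey squares for luminal Venus Low cells, from 1 array each. A dotted line marks a signal of 100. The widest gap is that of Hdac1 (9.83 in Venus High against 8.01 in Venus Low cells), and for Ezh2 and Smarce1 the symbols nearly coincide.

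Promoters are shown for the genes that were at least 2-fold higher, because these genes carry the largest differences. RefSeq sequences (GRCm38.p6) of the 250 bases before the annotated start matched 4 of the 6 by symbol. They are printed on the strand of the gene, and capitals mark the GC box GGGCGG and the CCAAT box CCAAT, searched on both strands.
Hdac11, chr6:91156565-91156814, plus strand: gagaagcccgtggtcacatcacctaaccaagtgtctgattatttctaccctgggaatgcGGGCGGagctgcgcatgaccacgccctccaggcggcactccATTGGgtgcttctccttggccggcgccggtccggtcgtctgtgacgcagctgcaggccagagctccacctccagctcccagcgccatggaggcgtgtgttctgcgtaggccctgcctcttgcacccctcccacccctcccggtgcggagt
Hdac6, chrX:7947890-7948139, minus strand: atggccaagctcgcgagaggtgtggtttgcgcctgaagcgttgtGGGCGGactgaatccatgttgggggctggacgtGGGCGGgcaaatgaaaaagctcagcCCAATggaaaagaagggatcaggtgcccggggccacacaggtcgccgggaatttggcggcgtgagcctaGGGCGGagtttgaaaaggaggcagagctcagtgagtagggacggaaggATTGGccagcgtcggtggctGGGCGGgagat
Smarca4, chr9:21615919-21616168, plus strand: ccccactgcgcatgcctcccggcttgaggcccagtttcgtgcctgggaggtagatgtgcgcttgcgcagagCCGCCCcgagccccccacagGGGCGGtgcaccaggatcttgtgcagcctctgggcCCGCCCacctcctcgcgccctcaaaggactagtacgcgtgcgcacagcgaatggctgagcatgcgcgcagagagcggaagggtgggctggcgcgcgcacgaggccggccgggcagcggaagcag
Arid5a, chr1:36307483-36307732, plus strand: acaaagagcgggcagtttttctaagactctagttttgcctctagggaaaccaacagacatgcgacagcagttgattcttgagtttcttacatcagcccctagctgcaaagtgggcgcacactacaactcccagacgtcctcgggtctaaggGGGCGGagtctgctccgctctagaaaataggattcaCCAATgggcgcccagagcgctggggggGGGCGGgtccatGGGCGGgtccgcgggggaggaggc

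All 4 sequences hold a GC box, 4 of them in Hdac6, 3 each in Smarca4 and Arid5a and 1 in Hdac11, and no match overlapped another. A CCAAT box is in 3, all but Smarca4. Their GC content lies between 58.0% in Arid5a and 70.8% in Smarca4. Over the 54 promoter entries of the 42 matched chromatin genes that reached a signal of 100, a GC box is in 66.7% and a CCAAT box in 44.4%, whereas among all 32851 promoters of the same length a GC box is in 32.7% and a CCAAT box in 33.8%. Base composition moved with these shares, at 61.8% GC over the 54 entries and 53.2% over all promoters. The medians were 17 and 6 CpG dinucleotides, and the part of base composition in the shares was not tested. All promoters include those of genes that did not reach a signal of 100 or are not in the table. The part of this in the shares was not tested either. The T-box half-site GGTGTGA is in none of the 54 entries and in 3.33% of all promoters, and the estrogen response element half-site AGGTCA is in 11.1% of the 54 entries and 14% of all. Neither half-site is in the 4 printed sequences. A match of letters is not evidence of binding, and the absence of one says only that these letters are not in this window.

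Among the writers of histone methylation, no gene that reached a signal of 100 was at least 2-fold higher, against 21.6% of all such genes. Each of these families holds 7 or fewer such genes, too few to set against this share. Of 14 lysine methyltransferases in the table, 7 reached a signal of 100, with a median difference of 0.40, or 0.23 when signals below 100 are set to 100. The first of these medians is the value of Kmt5c, an H4K20 methyltransferase that reached this signal in Venus High cells only. Setd7 had log2 signals of 9.31 in Venus High against 8.48 in Venus Low cells (1.78-fold). Kmt5a, which places the first methyl group on H4K20 and is needed for mitosis, had 9.73 in Venus High against 9.0 in Venus Low cells (1.66-fold), with 0.59 on its other probe set above a signal of 100. The H3K9 methyltransferases Ehmt1 and Ehmt2 form a dimer and differed by 0.44 and 0.20. Kmt2e, an MLL family member without known strong enzymatic activity, differed by 0.18, the smallest of the family, and its 4 probe sets that reached a signal of 100 lay between 0.02 and 0.18. Kmt2c and Setd1a, which belong to H3K4 methyltransferase complexes, stayed below a signal of 100, and Kmt2a, Kmt2b and Setd2 are not analysed here.

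The core of Polycomb repressive complex 2, which methylates H3K27 at silenced genes, was among the sets with the smallest differences. Ezh2, a catalytic subunit that is high in dividing cells, had log2 signals of 8.43 in Venus High against 8.41 in Venus Low cells, a difference of 0.02. Ezh1, the catalytic subunit typical of resting cells, had 7.61 in Venus High against 7.48 in Venus Low cells. Suz12 and Eed, the scaffold and the reader of the complex, stayed below a signal of 100 on the probe sets in the table.

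Protein arginine methyltransferases differed by 0.48 in the median over 5 genes, or by 0.32 when signals below 100 are set to 100, since Prmt7 reached this signal in Venus High cells only. Prmt1, the main enzyme for asymmetric dimethylarginine, had log2 signals of 10.46 in Venus High against 9.72 in Venus Low cells (1.67-fold), and Prmt5, which makes symmetric dimethylarginine, had 7.24 in Venus High against 7.07 in Venus Low cells. Prmt2, Prmt7 and Prmt3 lay between, with 0.55, 0.48 and 0.32. The PR domain factors, zinc finger proteins many of which specify germ cells or neurons, held no member that reached a signal of 100, since 6 of 7 in the table (the non-coding Prdm16os included) stayed at the floor and Prdm10 reached only 4.52 in Venus High cells. Another 8 of them are not analysed here, Prdm1 among them.

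Histone demethylases had a median difference of 0.21 over the 5 of 13 genes that reached a signal of 100. Kdm1a, which encodes LSD1, the H3K4 demethylase of CoREST, had log2 signals of 10.53 in Venus High against 9.94 in Venus Low cells (1.51-fold), and its other probe set gave 0.65. Kdm3b, an H3K9 demethylase, Kdm6b, an H3K27 demethylase, and Kdm2a, an H3K36 demethylase, differed by between 0.16 and 0.22. Kdm5c, an X-linked H3K4 demethylase, had 7.75 in Venus High against 7.74 in Venus Low cells, and its 3 probe sets above a signal of 100 gave 0.18 at most. Its Y-linked counterpart Kdm5d lay at 3.35 in Venus High cells and at the floor in Venus Low cells, and all of these mice are female. Kdm5b had 5.41 in Venus High against 4.46 in Venus Low cells, below a signal of 100 on both arrays.

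Lysine acetyltransferases, which add the marks that deacetylases remove, included 3 genes that reached a signal of 100, with a median difference of 0.17. Kat8, the H4K16 acetyltransferase of the MSL and NSL complexes, had log2 signals of 6.75 in Venus High against 5.98 in Venus Low cells (1.71-fold), but only 0.11 remains when signals below 100 are set to 100, which is then also the median of the 3. Kat2a and Kat2b, which encode the paralogous enzymes GCN5 and PCAF, differed by 0.17 and 0.05. Another probe set of Kat2b, below a signal of 100 and at the floor in Venus Low cells, gave 0.80, and stands for the gene where probe sets of the _s_at type are left out. Sirt7, a nuclear NAD-dependent deacylase, was the 1 sirtuin that reached a signal of 100, with 7.69 in Venus High against 7.47 in Venus Low cells. The mitochondrial Sirt4 had 5.71 in Venus High against 4.71 in Venus Low cells, and Sirt1, Sirt2 and Sirt3 are not analysed here.

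DNA methyltransferases and TET enzymes, which add methyl groups to cytosine and oxidise them, had a median difference of 0.20 over 3 genes. Dnmt3a, a de novo enzyme, had log2 signals of 7.65 in Venus High against 7.36 in Venus Low cells, and Dnmt1, the maintenance enzyme, had 9.46 in Venus High against 9.26 in Venus Low cells. Tet2 had 7.99 in Venus High against 7.81 in Venus Low cells. The 3 differences lay between 0.18 and 0.29, and both Dnmt3a probe sets above a signal of 100 gave values close to each other (0.28 and 0.29). Dnmt3l and Tet1 were at the floor on both arrays.

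**Figure D3:**
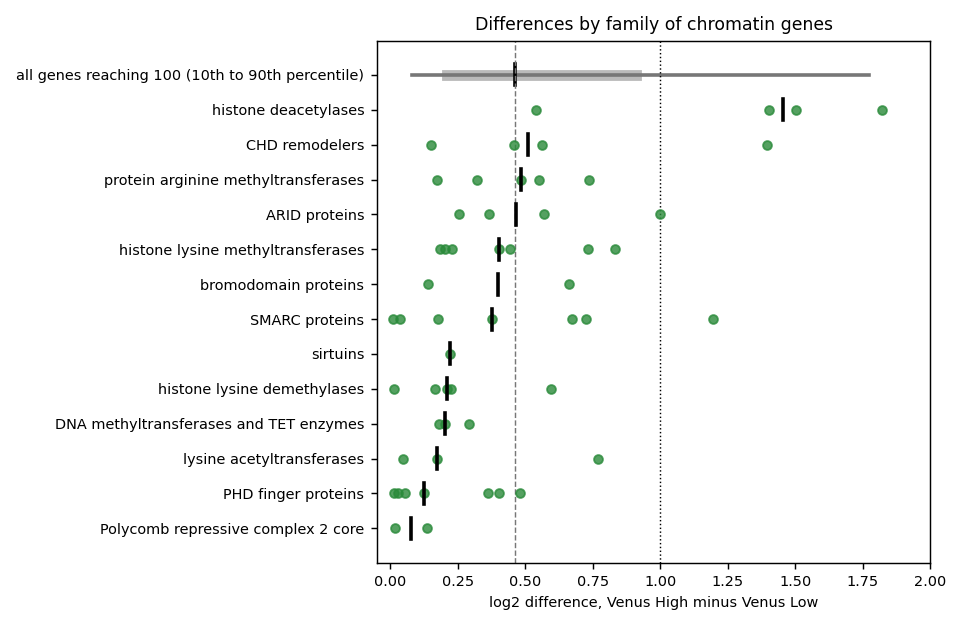
Log2 difference, Venus High minus Venus Low (horizontal axis), of each chromatin gene that reached a signal of 100 (green points), by family, with the family's median (black tick). The top row gives all 3847 genes, with the 10th to 90th percentile as a thin bar, the quartiles as a thick bar and the median as a tick and a dashed line, and the dotted line marks 2-fold. Histone deacetylases have the highest median, 1.45 over 4 genes, and the Polycomb repressive complex 2 core the lowest, 0.08 over 2 genes.

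Readers of histone marks comprised PHD finger, bromodomain and chromobox genes. None that reached a signal of 100 was at least 2-fold higher on the probe set that represents it, against 21.6% of all such genes. With 7 or fewer such genes in each reader family, the counts are too small to set against this share. Of 16 PHD finger genes in the table, 7 reached a signal of 100, with a median of 0.13 and a range of 0.01 for Phf8 to 0.48 for Phf21a. Phf21a encodes BHC80, the CoREST subunit that binds unmethylated H3K4, and had log2 signals of 7.75 in Venus High against 7.27 in Venus Low cells. Phf8, a demethylase, had 7.57 in Venus High against 7.56 in Venus Low cells. Phf5a, a splicing factor that shares the symbol but not the chromatin role, differed by 0.36. Among bromodomain genes Brd8, a subunit of the TIP60 acetyltransferase complex, had 8.74 in Venus High against 8.08 in Venus Low cells (1.58-fold), and Brd3, a BET protein, differed by 0.14. No chromobox gene paired with 1 symbol reached a signal of 100. Of these, Cbx8, a Polycomb reader, had 5.66 in Venus High against 4.48 in Venus Low cells, and Cbx2, Cbx5 and Cbx7 were at the floor on both arrays.

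Remodeler subunits differed by between 0.01 and 1.40 on the log2 scale. In the SMARC family 7 of 11 genes reached a signal of 100, with differences from 0.01 for Smarce1 to 1.20 for Smarca4 and a median of 0.37. Beside Smarca4, the core subunit Smarcb1 had log2 signals of 7.93 in Venus High against 7.20 in Venus Low cells (1.65-fold), and the scaffold Smarcc1 had 8.89 in Venus High against 8.21 in Venus Low cells (1.60-fold). Smarcd2 had 10.54 in Venus High against 10.16 in Venus Low cells. Its fellow subunits Smarcc2 and Smarce1 differed by 0.04 and 0.01, although another Smarce1 probe set gave 0.58. Among ARID genes, Arid1b and Arid2, which define the BAF and PBAF forms of SWI/SNF, differed by 0.36 and 0.25, and Arid5b, which works with a PHD finger demethylase, had 10.44 in Venus High against 9.87 in Venus Low cells. In the CHD family, Chd6 and Chd8 differed by 0.56 and 0.46, and Chd4, the NuRD ATPase related to Chd3, had 9.12 in Venus High against 8.96 in Venus Low cells, a difference of 0.15.

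Within complexes, the differences were unequal from subunit to subunit. Of 12 NuRD genes that reached a signal of 100, a list made with the values known, Hdac1 and Chd3 were at least 2-fold higher, Mta1 differed by 0.86, and the other 9 lay between 0.12 and 0.54, with a median of 0.42 over the 12. The 2 of 12 are 16.7%, near the 21.6% of all genes, and the counts of the other complexes rest on 11 or fewer genes. Of 11 SWI/SNF genes, Smarca4 alone passed 2-fold (9.09%, against 21.6% of all genes), and the median was 0.36. Of 5 CoREST genes, Hdac1, which this complex shares with NuRD, passed 2-fold (20%, against the same 21.6%), and the median was 0.54. Of 5 PRC2 genes, 0 passed 2-fold, a number too small to set against 21.6%, with a median of 0.20 and a highest value of 0.47 for Mtf2. Between close relatives, pairs that were also picked with the values known, the difference of Hdac1 exceeded that of Hdac2 by 1.28 log2 units and that of Chd3 exceeded that of Chd4 by 1.25. Chd3 had a signal of 81.3 in Venus Low cells, and its difference falls from 1.40 to 1.10 when signals below 100 are set to 100. Smarcc1 exceeded Smarcc2 by 0.64, Arid5a exceeded Arid5b by 0.43, Kmt5a exceeded Kmt5c by 0.33 and Ehmt1 exceeded Ehmt2 by 0.24. Hdac6 exceeded Hdac10 by 0.64, but Hdac10 stayed below a signal of 100. For Ezh1 against Ezh2, Kat2a against Kat2b and Dnmt1 against Dnmt3a the gap was 0.12, 0.12 and -0.09.

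**Figure D4:**
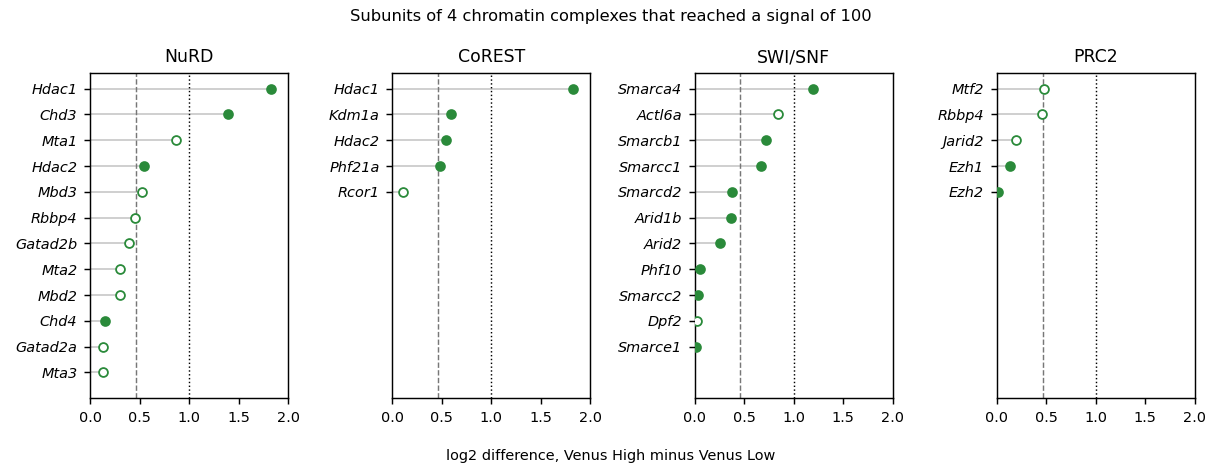
Log2 difference, Venus High minus Venus Low (horizontal axis), of subunits of NuRD, CoREST, SWI/SNF and PRC2 that reached a signal of 100, with genes of the symbol rule as filled and partners as open circles. The dashed line marks the median of all genes, 0.46, and the dotted line 2-fold, which Hdac1, Chd3 and Smarca4 exceed.

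Probe sets of the same gene give the one spread that these arrays allow. It covers differences between probe sets, not between animals, and leaves out probe sets that were lower in Venus High cells, so it may be too small. The pooled SD of the log2 difference was 0.21 over the 17 chromatin genes with 2 or more probe sets at a signal of 100 or above, and 0.31 over 1062 genes of all kinds. Of the 54 chromatin genes, 26 differed by less than 0.31. Probe sets of Brd8 lay farthest apart, between 0.39 and 1.38 over 4 probe sets, and a pair of Smarce1 probe sets gave 0.01 and 0.58. For Hdac11 both values exceed 1 log2 unit, whereas those of Smarca4, 1.20 and 0.84, lie on either side of it.

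**Figure D5:**
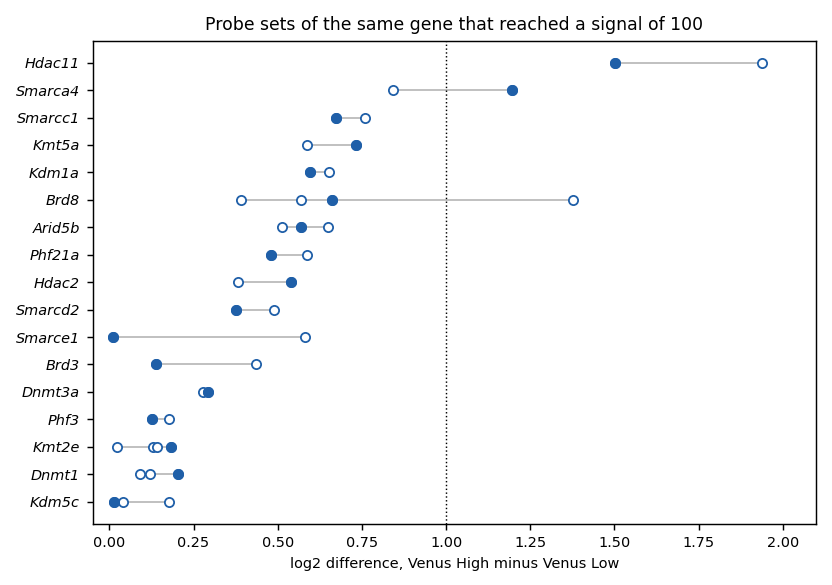
Log2 difference, Venus High minus Venus Low (horizontal axis), for each probe set that reached a signal of 100, in the 17 chromatin genes with at least 2 such probe sets. The filled circle is the probe set that represents the gene, open circles are the others, and the dotted line marks 2-fold. The widest range is that of Brd8, from 0.39 to 1.38.

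Partners of these proteins whose symbols the rule does not cover were described by 7 lists. Listed genes without a probe set in the table were not analysed. Of 19 corepressor subunits, 11 reached a signal of 100, with a median difference of 0.30 and 0 at 2-fold or more. Among all genes with such a signal the median was 0.46, and 21.6% passed 2-fold. Each of the lists holds 11 or fewer such genes, too few to set against this share. Mta1 was 1.82-fold and Sin3a, the scaffold of the SIN3 complex, 1.76-fold higher. Of 19 Polycomb partners, 14 are in the table and 9 reached this signal, with a median of 0.63. Scmh1, a PRC1-associated protein, was 2.76-fold higher, with log2 signals of 7.23 in Venus High against 5.76 in Venus Low cells (0.59 when signals below 100 are set to 100). Of the PRC1 subunits Phc2, Phc3 and Bmi1, Phc2 was 1.93-fold, Phc3 1.66-fold and Bmi1 1.63-fold higher. Other PRC1 subunits of the list differed less, with log2 differences of 0.63 for Pcgf6, 0.50 for Phc1 and 0.26 for Pcgf3. Ring1, Pcgf1 and Pcgf2 stayed below a signal of 100, and Rnf2 was at the floor on both arrays.

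Of 18 COMPASS partners and other methyltransferases, 3 reached a signal of 100, with a median of 0.21 and Dpy30 highest at 0.44. Of 20 further acetyltransferases and coactivators, 10 are in the table and 7 reached this signal, with a median of 0.33. Jade2, a subunit of an acetyltransferase complex of the MYST type, was the 1 gene of these lists that was at least 4-fold higher, with log2 signals of 6.87 in Venus High against 4.40 in Venus Low cells (0.23 when signals below 100 are set to 100). Among all genes with a signal of 100, 8.58% passed 4-fold, and the lists are too short to set against this share. Ep300, which encodes p300, differed by 0.47. Of 19 remodeler partners, 6 reached a signal of 100, with a median of 0.55 and Actl6a, a BAF and INO80 subunit, highest at 0.84. Of 9 DNA methylation partners, 3 are in the table and 2 reached this signal, Gadd45a with 0.88 and Uhrf2 with 0.10. Of 11 histone chaperones, 7 are in the table and 2 reached it, Nap1l4 with 0.66 and Anp32e with 0.20.

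The 36 chromatin genes that lay above the floor but below a signal of 100 had log2 signals of up to 6.59 in Venus High cells and a median difference of 0.28. The largest were those of Prdm10, which was at the floor in Venus Low cells and so has only a lower bound of 1.20, Cbx8 (1.18), Sirt4 (1.0, just under 2-fold) and Kdm5b (0.95). None of these genes is counted above, since none reached a signal of 100.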

How the data were processed

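Both sorted populations, Venus High and Venus Low, of 1 pool of 3 mice were measured on 1 Affymetrix array each, from 250 ng of RNA with an integrity number above 9.4. The authors log2-transformed the signals and normalized and centred each sample in BRB Array software, and the deposited values are therefore on the log2 scale. The submitters' processing notes name MAS5. The sources used here do not give what the arrays were normalized to, so whether both arrays share a scale is unknown.

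Genes were assigned to probe sets by the array's annotation in GEO (22223 with 1 symbol, 602 with several, 6513 not listed), with symbols updated by gene identifier to RefSeq (GRCm38.p6), which changed none of the chromatin genes. Where a gene had several probe sets, the one with the highest mean over both arrays stood for it. A gene was counted as higher at a 2-fold or 4-fold difference and a signal of at least 100. The genes and lists were chosen with earlier results of these data known. Members named are the 10 with the largest differences, the 5 with the highest mean signal, the largest and smallest of each family with at least 3 genes that reached a signal of 100, and any whose probe sets disagree by more than 1 log2 unit, of which there was none. All other genes, complexes and pairs were chosen after their values were seen.

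Alternatives were median centring, quantile normalization, floors at signals of 32 and 100, the median or the highest Venus Low value of a gene's probe sets, no _x_at, _s_at or _a_at probe sets, minimum signals of 50 and 200, symbols as given, and a signal of 100 on both arrays. Python 3.11.15, numpy 2.4.6, pandas 2.3.3 and matplotlib 3.10.9 were used, and the code was tested on simulated data. Columns of other samples numbered 0.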

Additional observations from a re-analysis of the deposited data

How the results depend on the processing

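The count of chromatin genes at least 2-fold higher changed with the scaling of the arrays. It was 1 after median centring (1.85%, against 10.2% of all genes) and 1 after quantile normalization (1.85%, against 9.89%), Hdac1 in both, in place of 6. The median difference was -0.39 under each of these scalings, against -0.24 over all genes after median centring and -0.26 after quantile normalization. For these shares and medians the signal of 100 was required after scaling. It was reached by 54 chromatin genes under each, not all the same as the 54 above, and by 3737 and 3753 of all genes. Of the 25 genes named by rule, 15 became negative under each. That values turned negative follows from the table, which holds no probe set lower in Venus High cells. Centring lowers every difference by 0.66, and the change in the set of genes also moved the medians. The negative values say nothing of the true scale, which is unknown. Under the other 8 planned settings the count was 6 or 7, the 6 genes remained, Brd8 joined when probe sets of the _x_at, _s_at and _a_at types were left out and Cbx8 with a minimum signal of 50. With a signal of 100 on both arrays, added after the data were seen, Chd3 and Hdac6 dropped out, with signals of 81.3 and 98.9 in Venus Low cells. The count at 4-fold was 0 under all settings. With the median over the probe sets of each gene, 16.2% of 37 chromatin genes and 21.8% of all genes were at least 2-fold higher, and the differences of Kat2b (0.80), Smarce1 (0.58), Setd7 (0.42) and Kmt5a (0.29) moved by more than the SD between probe sets, while with the floor at 100 the shares were 11.1% and 15.1%, so the gap between them depends on these choices. No paired analysis was possible because each population has 1 array, and leaving out a replicate was not possible for the same reason.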

Other observations

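Probe sets paired with Cbx3 and its pseudogene Cbx3-ps5 together were left out of the comparisons, because none was paired with 1 symbol. Cbx3 encodes HP1 gamma, a reader of methylated H3K9. Its 3 probe sets in the table had log2 signals of 10.26 in Venus High against 10.09 in Venus Low cells, of 8.06 in Venus High against 7.87 in Venus Low cells, and of 3.74 in Venus High cells with the floor in Venus Low cells. The first pair of differences, 0.17 and 0.19, is smaller than the pooled SD between probe sets of a gene, 0.31.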
